A study of Mus musculus with 31 samples.

Results

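Cadherins and protocadherins were taken as the protein-coding genes whose symbol is Cdh followed by a number, or starts with Pcdh. They numbered 92 of the 22028 protein-coding genes of the GENCODE annotation of mouse genome build GRCm38. They comprised 23 Cdh genes, 12 protocadherin genes that lie outside the gene clusters, and 57 clustered protocadherins, of which 14 belong to the alpha, 22 to the beta and 21 to the gamma cluster. All 57 clustered members lie on chromosome 18, and no member lies on chromosome 11.

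The series has a bulk and a Smart-seq2 RNA-seq experiment, and both are labelled as neural progenitor cells. The bulk experiment compared dissected dorsal and ventral diencephalon, taken from wild-type mice at E10.5, with 3 libraries per region. The Smart-seq2 experiment, a full-length protocol for very small RNA inputs, compared cells of the medial cortex at E11.5, with 13 libraries labelled Axin2(-/-) and 12 labelled Axin2(+/+). Axin2 encodes a scaffold protein that restrains Wnt signalling and is itself induced by it. Both genotypes carried the same background, which the genotype label writes as Emx1-cre(+/-)::MDMD and the extraction protocol as Emx1-CreERT2::MADM-11, with Axin2 present as a LacZ allele in heterozygous mice. Emx1 drives the recombinase in dorsal telencephalic progenitors, and a mosaic of this kind puts mutant and wild-type cells into the same brain. No label ties a library to an embryo, so the p-values of the bulk comparison measure only the spread between these libraries, and each Smart-seq2 genotype was treated as 1 sample, without a test.

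Cadherins are transmembrane adhesion proteins with calcium-binding extracellular repeats. Classical cadherins bind the same or related cadherins on the neighbouring cell and are coupled to actin through beta-catenin and alpha-catenin, the former also being the transcriptional effector of Wnt signalling. Protocadherins lack the catenin-binding tail: the delta protocadherins recruit actin regulators, while the clustered ones are chosen in combinations by each neuron, through CTCF, cohesin and promoter methylation, and serve self-recognition. In the early neural tube the change from Cdh1 (E-cadherin) to Cdh2 (N-cadherin) accompanies the formation of the neuroepithelium, and type II cadherins and delta protocadherins mark its subdivisions.

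In the diencephalon, 5 of the 82 members that could be tested differed between regions, as described further on, and 3 of these 5 had an entry among the RefSeq promoter windows of GRCm38.p6, a table that held 22 of the 92 members. These windows are shown because they belong to called genes of both directions. Each line runs 5′ to 3′ on the strand of the gene, from 250 bases before to 50 bases after the start of transcription. Capitals mark matches, on either strand, to the TCF/LEF core (CTTTGA or CTTTGT, the sites read by the Wnt effectors), the Snail/Zeb E-box (CACCTG) or the homeodomain core (TAATTA). The first 2 windows belong to genes higher in dorsal and the last to a gene higher in ventral tissue. Pcdh9 lies on the minus strand at chr14:93890630-93890929, Pcdh18 on the minus strand at chr3:49757267-49757566 and Cdh22 on the minus strand at chr2:165234688-165234987.
Pcdh9: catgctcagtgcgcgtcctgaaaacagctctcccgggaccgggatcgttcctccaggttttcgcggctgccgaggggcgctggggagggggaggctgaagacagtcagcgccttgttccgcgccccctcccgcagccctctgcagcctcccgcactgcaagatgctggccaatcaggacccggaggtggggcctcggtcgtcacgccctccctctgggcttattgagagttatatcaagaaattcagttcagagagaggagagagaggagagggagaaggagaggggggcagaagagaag
Pcdh18: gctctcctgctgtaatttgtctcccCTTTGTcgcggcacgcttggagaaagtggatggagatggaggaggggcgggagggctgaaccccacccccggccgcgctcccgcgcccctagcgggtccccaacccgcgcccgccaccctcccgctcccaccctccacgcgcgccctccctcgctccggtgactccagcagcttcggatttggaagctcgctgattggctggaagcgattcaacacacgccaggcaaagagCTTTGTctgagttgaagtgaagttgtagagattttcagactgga
Cdh22: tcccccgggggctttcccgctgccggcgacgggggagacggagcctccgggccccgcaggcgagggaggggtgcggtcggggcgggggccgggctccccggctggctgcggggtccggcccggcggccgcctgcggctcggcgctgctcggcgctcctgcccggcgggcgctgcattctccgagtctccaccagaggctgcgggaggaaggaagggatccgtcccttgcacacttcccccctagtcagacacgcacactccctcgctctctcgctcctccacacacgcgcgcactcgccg

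The Pcdh18 window held 2 matches to the TCF/LEF core, both CTTTGT, starting at positions -225 and 7 relative to the first transcribed base. No other match occurred in these 3 windows. Pcdh9 had 2 windows among the promoter windows. The one with the outermost start is shown, and the matches in the other are not given. Of the 32817 promoter windows of this length, 31.2% held at least 1 match to the TCF/LEF core and 6.68% held 2 or more, 20.2% held the E-box and 5.3% the homeodomain core, so 2193 windows share the feature of a pair of TCF/LEF matches. All 3 windows were rich in CG dinucleotides: 38 in Cdh22, 23 in Pcdh18 and 18 in Pcdh9, against a median of 7 over all windows. Their share of G and C was 76.3% in Cdh22, 63.0% in Pcdh18 and 62.7% in Pcdh9, against a median of 52.7%.

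Bulk libraries held 17604411 to 20838226 estimated counts each. In both regions libraries 1 and 2 were the closest pair and library 3 stood apart: over the members, the correlation of log2 levels was 0.98 between dorsal 1 and 2 and 0.96 between ventral 1 and 2, against 0.72 to 0.91 for the pairs with a library 3. Lars2, which encodes a mitochondrial tRNA synthetase, took 2.44% of the counts of dorsal 3 and 0.0295 to 0.277% of those of the other 5 libraries, and its part in what sets dorsal 3 apart was not tested. Whether libraries 1 and 2 of a region come from the same embryos was not tested. If they do, the adjusted p-values overstate the evidence. Region markers followed the labels, with 9 of 9 tested dorsal diencephalic genes higher in dorsal and 10 of 10 ventral diencephalic and hypothalamic genes higher in ventral libraries. All 7 of 7 telencephalic markers were also higher in dorsal libraries. They summed to 1551, 1464 and 1484 CPM (counts scaled to library size) in dorsal and to 40.9, 46.6 and 51.9 CPM in ventral libraries. The part of telencephalic RNA in the members higher in dorsal tissue was not tested. The ventral libraries held RNA of tissues outside the brain. There, 12 of 12 tested small intestine markers and 10 of 10 exocrine pancreas markers were higher. The 14 listed small intestine markers summed to 5435, 9517 and 2684 CPM in ventral 1, 2 and 3. In dorsal libraries they summed to 11.01 to 12.9 CPM. In bulk tissue, fewer cells of a type and less RNA per cell cannot be told apart.

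Of the 82 members tested, 2 were higher in dorsal tissue (Pcdh9 and Pcdh18) and 3 were higher in ventral tissue (Cdh22, Cdh17 and Cdh1), by edgeR's quasi-likelihood test at an adjusted p under 0.05. These are 6.1% of the members, against 16.7% of all 14701 genes tested (7.14% higher in dorsal and 9.54% higher in ventral). The other 77 members were not called, among them all 54 tested clustered protocadherins. The median log2 fold change of dorsal over ventral was -0.19 over the members and 0.01 over all genes. The levels of the 2 regions did not overlap for 25 of the 82 members, against 39.0% of all genes. The remaining 10 members were too low to test.

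Pcdh9, a delta-1 protocadherin of developing neurons and radial glia, stood at 228, 214 and 114 CPM in the 3 dorsal libraries and at 49.4, 46.0 and 47.8 CPM in the ventral ones. The dorsal libraries were all above the ventral ones, with dorsal 3 the lowest of them. The log2 fold change was 1.96 with an SE of 0.27 (adjusted p = 0.0024, edgeR), a ratio of means of 3.88. The gene spans positions 93013410 to 93890679 of chromosome 14, on the minus strand.

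Pcdh18, a delta-2 protocadherin, stood at 32.9, 26.4 and 22.2 CPM in dorsal and at 6.21, 5.84 and 5.40 CPM in ventral libraries. Every dorsal library was more than 3-fold above every ventral one. The log2 fold change was 2.22 with an SE of 0.26 (adjusted p = 0.0012, edgeR). The gene lies at positions 49743296 to 49757325 of chromosome 3, on the minus strand.

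Cdh22, a type II classical cadherin of the nervous system, went the other way, at 8.74, 11.2 and 10.4 CPM in dorsal and at 67.3, 57.4 and 57.4 CPM in ventral libraries. All 3 ventral libraries agreed closely, library 3 included. The log2 fold change was -2.58 with an SE of 0.21 (adjusted p = 0.0002, edgeR), a 5.99-fold ratio in favour of ventral tissue. Per kilobase of exon its level was 2.74 CPM in dorsal and 16.4 CPM in ventral tissue, where among the 17 tested Cdh genes Cdh2 alone had a higher level. The gene spans positions 165111507 to 165234853 of chromosome 2, on the minus strand.

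Cdh17, the liver-intestine cadherin, stood at 0.893, 1.21 and 3.32 CPM in dorsal and at 21.5, 33.96 and 17.2 CPM in ventral libraries. Its log2 fold change was -3.75 with an SE of 0.57 (adjusted p = 0.0038, edgeR). The ventral libraries fell in the order 2, 1, 3, which is also the order of the summed small intestine markers. The gene lies at positions 11758147 to 11817895 of chromosome 4.

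Cdh1, E-cadherin, the adhesion protein of epithelia, was near 0 in dorsal tissue, with 0, 5.22 and 5.002 estimated counts per library, and had 74.0, 200.2 and 86.2 counts in the ventral libraries. The ventral levels were 3.65, 10.8 and 4.80 CPM, and the fitted log2 fold change was -5.17 with an SE of 1.02 (adjusted p = 0.0116, edgeR). The size of that change rests on the few dorsal counts. The gene lies at positions 106603351 to 106670246 of chromosome 8.

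Epithelial markers were higher in the same region as Cdh1 and Cdh17. Of 7 tested markers of surface and pituitary epithelium, 5 were higher in ventral tissue. The 10 listed markers summed to 178, 300 and 94.1 CPM in ventral 1, 2 and 3, against 21.2 to 23.4 CPM in dorsal libraries. Epcam, an epithelial adhesion protein, stood at 36.1, 58.5 and 23.1 CPM in ventral 1, 2 and 3. Vil1, which builds the intestinal brush border, stood at 12.97, 25.2 and 8.90 CPM there. In both, as in Cdh17, ventral 2 was highest and ventral 3 lowest, whereas Cdh1 was highest in ventral 2 and lowest in ventral 1. The part of intestinal, pancreatic or other epithelial RNA in the Cdh1 and Cdh17 differences was not tested.

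**Figure D1:**
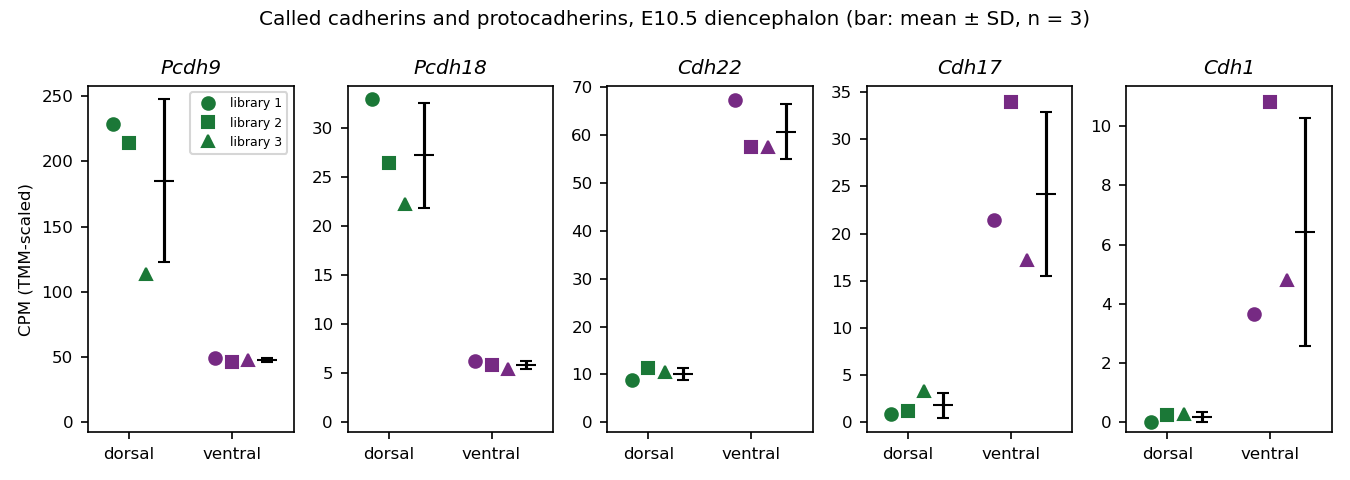
Level in CPM, scaled with TMM factors, of the 5 called members in each of the 3 dorsal and 3 ventral bulk libraries. Circle, square and triangle are libraries 1, 2 and 3 of a region, and the black bar gives mean ± SD (n = 3). The groups do not overlap in any panel: Pcdh9 and Pcdh18 are higher in dorsal, and Cdh22, Cdh17 and Cdh1 in ventral libraries.

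Among the other type I cadherins, Cdh2 was by far the most abundant member, at 428, 453 and 209 CPM in dorsal and at 473, 372 and 398 CPM in ventral libraries. Its regions overlapped, with dorsal 3 lowest, and its log2 fold change was -0.19 with an SE of 0.28 (adjusted p = 0.702, edgeR). Per kilobase of exon its level was 45.1 CPM in dorsal and 51.4 CPM in ventral tissue. Cdh4 (R-cadherin) stood at 67.9, 86.6 and 46.7 CPM against 105, 121 and 73.2 CPM. Dorsal 2 lay above ventral 3, and the log2 fold change of -0.57 with an SE of 0.28 was not called (adjusted p = 0.207). Cdh15 (M-cadherin of muscle) was low, at 0.625 to 1.92 CPM in dorsal and 2.67 to 3.60 CPM in ventral libraries, and was not called (adjusted p = 0.154).

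Of the type II cadherins, 10 of 13 were tested and Cdh22 alone was called. Cdh8, which marks subdivisions of the early forebrain, lay just outside the threshold, at 42.7, 46.8 and 21.7 CPM in dorsal and 15.3, 14.7 and 21.2 CPM in ventral libraries. The regions did not overlap, but dorsal 3 and ventral 3 nearly met. Its log2 fold change was 1.12 with an SE of 0.33 (adjusted p = 0.0538, edgeR), and it became 1.39 without dorsal 3 (adjusted p = 0.0108) and 1.26 without ventral 3 (adjusted p = 0.0335). Those fits called 22.1% and 24.7% of all genes, against 16.7% with all libraries. Leaving out any other single library did not call Cdh8. Cdh11, found in mesenchyme and neural tissue alike, stood at 39.6, 40.6 and 31.0 CPM against 38.9, 41.8 and 16.4 CPM, and only ventral 3 lay outside the range of the rest (log2 fold change 0.20, SE 0.35, adjusted p = 0.751). Cdh12 had a log2 fold change of 1.90 with an SE of 0.64 at a low level, 3.34 to 8.79 CPM in dorsal and 0.723 to 2.76 CPM in ventral libraries, and was not called (adjusted p = 0.0865). Cdh10 showed how far library 3 moved some members: 17.6, 16.5 and 16.3 CPM in dorsal libraries against 6.27, 5.78 and 18.3 CPM in ventral ones, and without ventral 3 it was called (log2 fold change 1.45, adjusted p = 0.0035). Cdh10, Cdh12 and Cdh15 were chosen after their values were seen. Cdh5, the endothelial cadherin, was not tested and stood at or below 0.148 CPM in every library.

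Cdh13 (T-cadherin), which is held in the membrane by a lipid anchor and has no cytoplasmic tail, stood at 76.1, 74.9 and 53.4 CPM in dorsal and at 41.8, 51.0 and 41.6 CPM in ventral libraries. The regions did not overlap, and the log2 fold change of 0.60 with an SE of 0.20 missed the threshold (adjusted p = 0.087, edgeR). DESeq2 called it (adjusted p = 0.0476), as did the fit without dorsal 3 (adjusted p = 0.0197). The latter called 22.1% of all genes, against 16.7% with all libraries. No other fit with all libraries or with a single other library left out called Cdh13. Cdh23, a tip-link protein of hair cells, was at 2.89 CPM or less in every library.

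Among the delta-1 protocadherins, Pcdh7 stood at 47.1, 41.8 and 40.7 CPM in dorsal and 36.2, 34.7 and 44.7 CPM in ventral libraries, overlapping through ventral 3 (adjusted p = 0.603). Pcdh11x stood at 17.6 to 19.3 CPM in dorsal and 12.3 to 17.5 CPM in ventral libraries, a log2 fold change of 0.33 with an SE of 0.25 (adjusted p = 0.413). Thus Pcdh9 was the single delta-1 member called, and the summed delta-1 level, 297, 280 and 177 CPM in dorsal against 109, 100.3 and 122 CPM in ventral libraries, was mostly Pcdh9 in dorsal tissue.

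The delta-2 protocadherins showed both directions without further calls. Pcdh8, a protocadherin of morphogenetic cell movements, stood at 85.5, 97.6 and 63.4 CPM in dorsal and 48.9, 62.8 and 106 CPM in ventral libraries (log2 fold change 0.18, SE 0.31, adjusted p = 0.741). The highest value of all was in ventral 3 and the lowest in ventral 1, so the region means hide a spread as wide as the difference. Pcdh19, whose human orthologue is a female-limited epilepsy gene, stood at 60.5, 56.2 and 52.5 CPM against 56.7, 48.1 and 92.9 CPM (log2 fold change -0.22, SE 0.26, adjusted p = 0.608). Pcdh17 was higher in each ventral than in each dorsal library, 42.2 to 56.1 CPM against 21.8 to 39.5 CPM, and was not called (log2 fold change -0.68, SE 0.26, adjusted p = 0.115). Without dorsal 3 it was called higher in ventral tissue (log2 fold change -0.89, adjusted p = 0.0474), in a fit that called 22.1% of all genes. With any other single library left out, Pcdh17 was not called. Of the protocadherins outside both delta groups, Pcdh15 stood at 5.38 to 7.38 CPM against 8.54 to 20.04 CPM (adjusted p = 0.175) and Pcdh20 at 3.79 to 6.58 CPM against 0 to 3.65 CPM (adjusted p = 0.578).

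**Figure D2:**
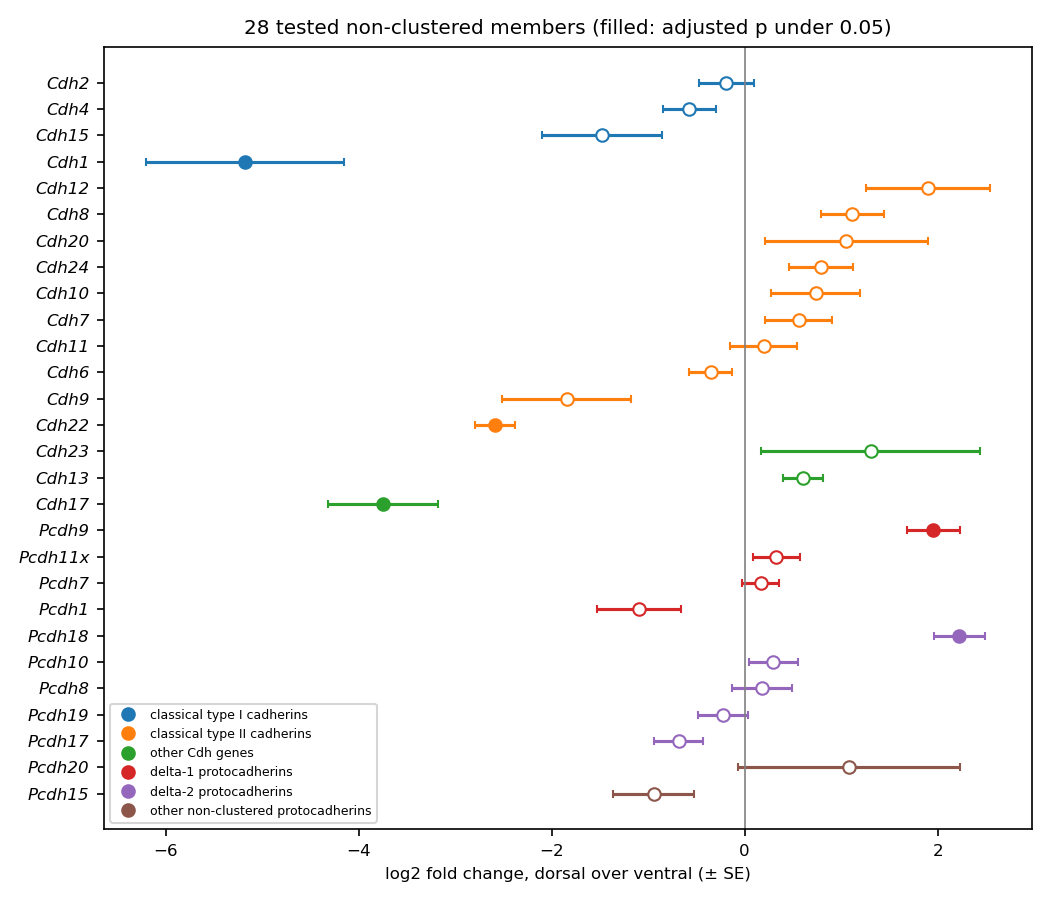
Log2 fold change of dorsal over ventral (± SE, edgeR fit over 3 and 3 libraries) of the 28 tested members outside the protocadherin clusters, grouped by subfamily. Filled points passed an adjusted p under 0.05: Cdh1, Cdh22 and Cdh17 on the ventral side, Pcdh9 and Pcdh18 on the dorsal side.

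Among the clustered protocadherins, none of the 54 tested was called with all libraries by DESeq2 or by edgeR without a replicate block. In that edgeR fit 3 had an unadjusted p below 0.05 (Pcdhgb7, Pcdha2 and Pcdhac1). Their fold changes ran from -1.75 to 1.22 on the log2 scale with a median of -0.26. Members of the alpha and of the gamma cluster end in shared constant exons, so that 27.8 to 66.8% of the exon length of each gamma member is also annotated to another gene, and how the reads of these exons were divided is not given in the sources used here. The symbol Pcdha11 stands for 2 gene identifiers in the annotation, and both are counted.

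Summed over a cluster, the levels were 85.3, 78.5 and 58.5 CPM in dorsal and 90.1, 104 and 70.6 CPM in ventral libraries for alpha, and 486, 536 and 272 CPM against 419, 403 and 539 CPM for gamma. Both overlapped between regions. The beta cluster, whose members are single-exon genes that hardly share sequence annotation, summed to 61.7, 69.2 and 51.0 CPM in dorsal and 91.7, 87.9 and 85.5 CPM in ventral libraries. Its regions did not overlap, with means of 60.6 ± 9.18 and 88.4 ± 3.15 CPM (SD, n = 3).

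Pcdhgc4 and Pcdhgc3, both C-type gamma members, were the most abundant clustered genes. Pcdhgc4, required for the survival of neurons, was the evenest of them, at 75.8, 77.5 and 79.7 CPM in dorsal and 87.3, 88.7 and 78.2 CPM in ventral libraries (log2 fold change -0.13, adjusted p = 0.624). Pcdhgc3 ranged over 111, 131 and 47.1 CPM against 81.9, 91.8 and 128 CPM (log2 fold change -0.06, adjusted p = 0.936), with the lowest and nearly the highest value both in a library 3. In the alpha cluster, Pcdhac2 was at 14.3, 21.1 and 3.90 CPM in dorsal and at 20.2, 33.3 and 0.0758 CPM in ventral libraries, so that it was nearly absent from ventral 3 alone. Pcdhac1 stood at 4.66 to 9.54 CPM against 10.9 to 14.1 CPM (log2 fold change -0.85, adjusted p = 0.156). In the beta cluster, Pcdhb7 stood at 6.58 to 7.64 CPM in dorsal and at 9.80, 10.9 and 1.06 CPM in ventral libraries, and Pcdhb17 at 8.75 to 9.92 CPM against 9.42, 10.97 and 5.12 CPM.

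Ventral 3 was patchy across the clusters: 15 of its 57 clustered members had 3 counts or fewer, against 1 to 5 in each of the other 5 libraries. Among members at 2 to 40 CPM in the mean of ventral 1 and 2, 17 of 48 (35.4%) lay more than 4-fold away in ventral 3, 15 below and 2 above, against 10.7% of the 7648 genes in that range. In dorsal 3 the same count was 5 of 43 (11.6%), against 1.02% of genes, and in each of the other 4 libraries it was 0 or 1. Pcdhb3, Pcdhb4, Pcdhb5 and Pcdhb9 were at 0 in ventral 3 and at 1.53 to 6.41 CPM in ventral 1 and 2. Pcdhgb4 went up instead, from 7.47 and 6.41 CPM to 43.3 CPM, and Pcdhga9 from 5.20 and 3.19 CPM to 25.6 CPM. The range and these 6 genes were chosen after the values were seen. Ventral 3 had 17769961 counts, close to the depth of the other libraries, and neither the number of cells behind it nor its part in the pattern was tested.

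**Figure D3:**
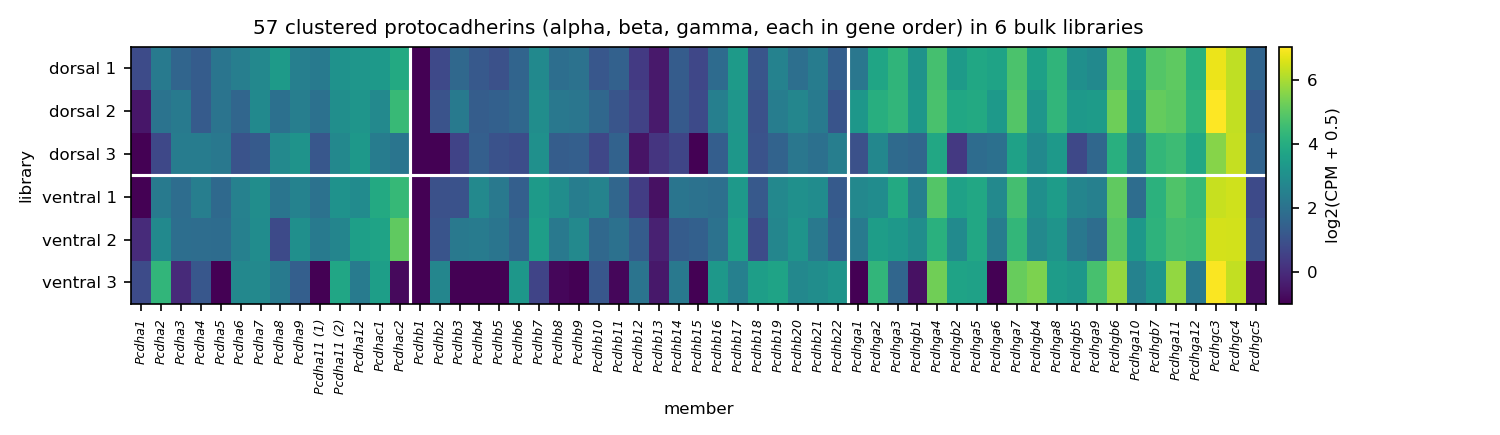
Levels of the 57 clustered protocadherins, as log2(CPM + 0.5), in the 6 bulk libraries (rows), with members of the alpha, beta and gamma clusters in gene order (columns, white lines between clusters) and Pcdha11 shown once for each of its 2 identifiers. The first 2 libraries of each region look alike, while ventral 3 has dark cells where 15 members fall to 3 counts or fewer, and Pcdhgc3 and Pcdhgc4 are bright throughout.

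Leaving out both libraries numbered 3, a choice made after seeing the data, called 15 members higher in dorsal and 13 higher in ventral tissue out of 83, or 33.7%, against 54.7% of all genes in the same fit. All 7 gamma members called there (33.3% of 21) were higher in dorsal tissue. The 1 alpha (7.7% of 13) and 4 beta members (20% of 20) called were higher in ventral tissue. Each of these shares is below that of all genes, and no clustered member was called by edgeR with all libraries unless a replicate block was added. Fits that left out 1 library called 2 to 6 members higher in dorsal and 3 or 4 higher in ventral tissue. With dorsal 3 alone left out these were 6 and 4, against 9.68% and 12.4% of all genes, and with ventral 3 alone left out 4 and 4, against 24.7% of all genes in either direction.

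Of the catenins and other adherens junction proteins, 1 of 13 tested genes was called (7.69%, against 16.7% of all genes). Ctnnd2 (delta-catenin), which binds the juxtamembrane part of classical cadherins in neurons, was higher in dorsal tissue, at 134, 126 and 90.2 CPM against 75.3, 75.04 and 66.3 CPM (log2 fold change 0.69, SE 0.20, adjusted p = 0.0469, edgeR), and this call was lost with any library but dorsal 3 left out (adjusted p = 0.073 to 0.198). Ctnnb1 (beta-catenin) overlapped between regions, at 884, 940 and 512 CPM against 631, 637 and 415 CPM (adjusted p = 0.277).

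Of 16 tested genes elsewhere in the cadherin superfamily, 3 were higher in dorsal and 4 in ventral tissue, together 43.8% against 16.7% of all genes. The dorsal ones act in planar cell polarity and growth control. Fat4 stood at 52.1, 44.5 and 38.3 CPM against 6.16, 4.81 and 7.90 CPM (log2 fold change 2.84, SE 0.27, adjusted p = 0.0004, edgeR). Celsr1 stood at 42.0, 42.3 and 49.3 CPM against 2.61, 1.41 and 10.02 CPM (log2 fold change 3.25, SE 0.66, adjusted p = 0.0125), and was no longer called without ventral 1 (adjusted p = 0.0531). Celsr2 stood at 141 to 172 CPM against 44.9 to 89.2 CPM (log2 fold change 1.38, SE 0.29, adjusted p = 0.0151), and was no longer called without ventral 1 (adjusted p = 0.0648) or ventral 2 (adjusted p = 0.059). The ventral ones were Cdhr2 and Cdhr5, protocadherins of the intestinal brush border, Dsg2, a desmosomal cadherin of epithelia, and Ret, the receptor of GDNF. Cdhr2 stood at 14.6, 28.9 and 5.62 CPM in ventral 1, 2 and 3 and at 0.188 to 0.529 CPM in dorsal libraries (log2 fold change -5.52, adjusted p = 0.0023, and 0.0515 with limma-voom), again in the order of the small intestine markers, whose part was not tested. Cdhr5 was no longer called without dorsal 1 (adjusted p = 0.0679) or dorsal 2 (adjusted p = 0.0638), with a replicate block (adjusted p = 0.0614) or with limma-voom (adjusted p = 0.112), and Dsg2 without any of dorsal 1, dorsal 2, ventral 1 and ventral 2 (adjusted p = 0.0813 to 0.141). Ret stood at 4.39, 5.62 and 3.84 CPM against 0.141 to 0.509 CPM (log2 fold change -3.73, adjusted p = 0.0079).

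Of the other 3 lists of partner genes, the shares called were 11.1%, 7.69% and 33.3%, each resting on 1 gene, against 16.7% of all genes. Of 9 genes that act in clustered promoter choice, Wapl, which releases cohesin from DNA, was higher in dorsal tissue, at 72.6 to 81.8 CPM against 36.8 to 53.7 CPM (log2 fold change 0.87, SE 0.20, adjusted p = 0.0227, edgeR), a call lost without dorsal 1, dorsal 2 or ventral 1 (adjusted p = 0.0931 to 0.106). Ctcf was not called (log2 fold change 0.45, adjusted p = 0.111). Of 13 cytoplasmic partners and proteases, Mmp14, a membrane-bound metalloprotease, was higher in dorsal tissue, at 67.2 to 83.7 CPM against 24.6 to 32.7 CPM (log2 fold change 1.41, SE 0.19, adjusted p = 0.0023). Of 3 tested transcription factors known to act on Cdh1, Zeb2, a repressor of that gene, was higher in dorsal tissue. It stood at 161, 166 and 124 CPM against 20.996, 21.5 and 14.6 CPM (log2 fold change 2.98, SE 0.23, adjusted p = 0.0002, edgeR). Its part in the Cdh1 difference was not tested. Zeb1 was not called, at 39.2 to 65.2 CPM against 35.7 to 45.5 CPM (adjusted p = 0.316).

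In the Smart-seq2 libraries the targeted gene did not separate the labels fully. Axin2 stood at 0, 3.28 and 22.4 TPM (transcript abundance scaled to length and depth; lowest, median, highest) in the libraries labelled null, 11 of 13 of them at 1 TPM or more, and at 4.32, 13.2 and 35.9 TPM in the 12 libraries labelled wild type. The labels do not say which exons the LacZ allele lacks, so reads of Axin2 in a library labelled null do not by themselves go against its label. TPM keeps no depth. The libraries labelled null had 7863, 10791 and 11852 genes at 1 TPM or more, and those labelled wild type 8693, 11271 and 12209. Transcripts of the mitochondrial genome made up 0.384, 1.84 and 5.71% of TPM against 2.11, 3.40 and 8.80%. Endothelial markers, 10 genes summed, stood at 33.2, 49.5 and 139 TPM against 38.9, 114 and 213 TPM, and mesenchymal markers at 40.1, 120 and 308 TPM against 51.2, 182 and 352 TPM. Neuronal and progenitor markers were present in every library. The part of these differences in the values that follow was not tested.

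Of the 30 members with a mean of at least 1 TPM, 6 were higher in the libraries labelled wild type by at least 1 in mean log2(TPM + 1), and 1 was higher in those labelled null. These are 20% and 3.33% of the 30, against 8.14% and 1.39%, or 9.52% in either direction, of the 13680 genes at that level. The 6 were Cdh2, Cdh11, Cdh7, Pcdh9, Pcdhgc3 and Pcdhb8, and the 1 was Pcdhgb1. In all, 23 of the 30 (76.7%) were higher in libraries labelled wild type, against 65.9% of all genes, and the median difference of null minus wild type was -0.63 against -0.22. The filter used the mean over both genotypes, so a member below 1 TPM in 1 genotype passed only through the other, which largely fixed its direction. Such members included Pcdhb8, Pcdh11x and Pcdhga7, kept through wild type, and Pcdhgb1, kept through null. These counts are therefore no evidence of a direction, and the filter was the same for all genes. On this scale a difference understates the change of low genes, and with 1 sample per genotype no value has a test.

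Cdh2 was found in all 25 libraries, at 16.9, 50.7 and 86.0 TPM (lowest, median, highest) in those labelled null and at 69.1, 84.4 and 146 TPM in those labelled wild type. The ranges overlapped only between 69.1 and 86.0 TPM, and the difference was -1.06. It was -0.96 without the 2 libraries per genotype with the fewest genes, a choice made after seeing the data, and -0.72 as a difference of medians, both short of the fold. Cdh4 showed no such shift, at a median of 3.39 TPM against 3.53 TPM (difference -0.27). Cdh1 was at 0 in every library, Cdh3 reached 1 TPM in 1 of them and Cdh15 in none.

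Among the type II cadherins, Cdh11 stood at 0, 2.44 and 5.30 TPM in libraries labelled null and at 0, 7.14 and 20.9 TPM in those labelled wild type (difference -1.10). Cdh7, a cadherin of migrating neural crest and of neural tube subdivisions, stood at 0, 1.97 and 4.98 TPM against 0, 5.77 and 14.9 TPM (difference -1.03). Both genes were at 1 TPM or more in similar numbers of libraries, Cdh11 in 9 of 13 and 8 of 12 and Cdh7 in 9 of 13 and 9 of 12, so that the genotypes differed in how high the detected values went. Cdh10 (difference -0.60), Cdh22 (0.16) and Cdh5 (-0.34) did not reach the fold. Cdh22, so much higher in ventral diencephalon, had a median of 0 TPM in libraries labelled null and of 0.485 TPM in those labelled wild type. Cdh13 was detected in 6 of 13 libraries labelled null and 10 of 12 labelled wild type, with medians of 0.990 and 6.12 TPM and a difference of -0.99, just short of the fold. Cdh17 stayed below 1 TPM in every library, and Cdh16, Cdh23 and Cdh26 were likewise not detected.

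Pcdh9 stood at 1.27, 9.10 and 34.3 TPM in libraries labelled null and at 0, 23.5 and 72.3 TPM in those labelled wild type (difference -1.04). It was at 1 TPM or more in 13 of 13 and in 11 of 12 libraries, and its ranges overlapped widely. Without the 2 libraries per genotype with the fewest genes the difference was -0.89, and with a pseudocount of 0.1 it was -0.93, both short of the fold. Pcdh7 (medians 2.06 and 4.21 TPM, difference -0.60), Pcdh11x (0 and 0.655 TPM, -0.83) and Pcdh1 (0 and 0 TPM, -0.29) were lower in libraries labelled null by less than the fold. Pcdh18 was detected in 9 of 13 and 12 of 12 libraries, with medians of 5.85 and 9.15 TPM and a difference of -0.94, just under the fold. Pcdh19 stood at 0.740, 5.17 and 32.2 TPM against 1.19, 7.80 and 34.9 TPM (difference -0.50). Pcdh17 (0.26) and Pcdh10 (0.14) leaned slightly the other way, and Pcdh8 reached 1 TPM in 4 libraries, all labelled wild type. Pcdh15 had a single high value, 43.5 TPM in a library labelled wild type, and Pcdh12, an endothelial protocadherin, reached 13.1 TPM in the same genotype, where it was detected in 4 of 12 libraries. Pcdh20 stayed below 1 TPM throughout. Summed over the 35 members outside the clusters, the level was 62.0, 99.5 and 170 TPM in libraries labelled null and 117, 187 and 314 TPM in those labelled wild type.

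**Figure D4:**
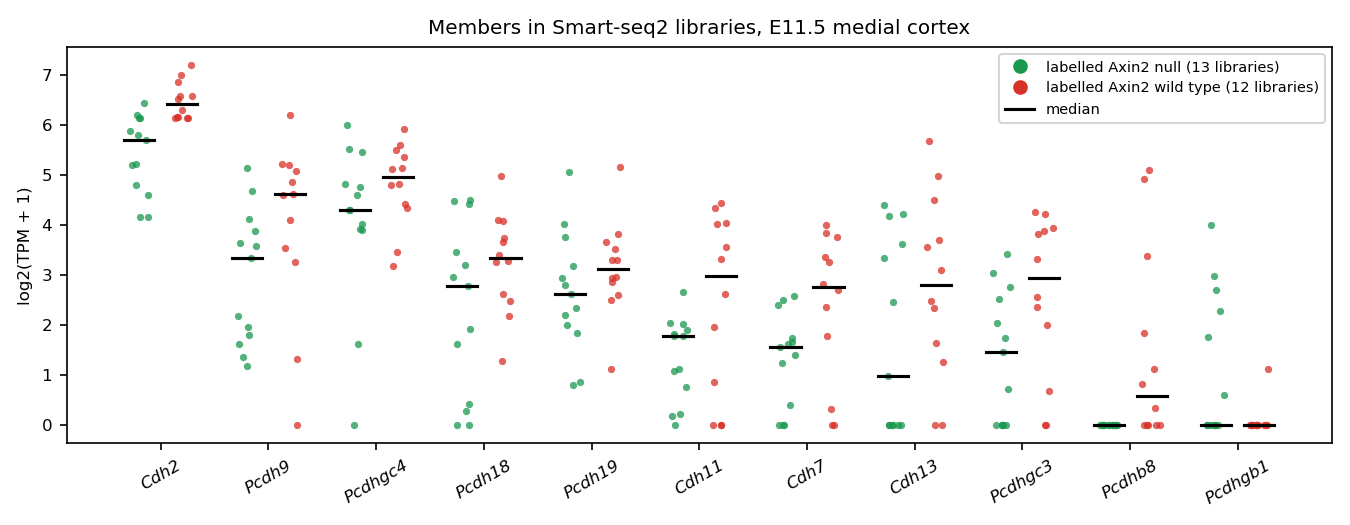
Level, as log2(TPM + 1), of 11 members in each Smart-seq2 library, with green points for the 13 libraries labelled Axin2 null, red points for the 12 labelled wild type and black lines for medians. Cdh2 has the narrowest overlap of the genotypes, Pcdhb8 is at 0 in all libraries labelled null, and for the other genes the points of both genotypes intermingle.

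The clustered protocadherins were sparse. Of the 57, 11 were never at 1 TPM or more, 34 were in 1 to 5 of the 25 libraries, 10 in 6 to 12, and 2 in 13 or more. Those 2 were Pcdhgc4, detected in 24 libraries, and Pcdhgc3, the C-type genes that also led in bulk tissue. Pcdhgc4 stood at 0, 18.8 and 63.2 TPM in libraries labelled null and at 8.11, 30.5 and 59.8 TPM in those labelled wild type (difference -0.71). Pcdhgc3 stood at 0, 1.77 and 9.77 TPM against 0, 6.98 and 18.2 TPM (difference -1.22), detected in 7 of 13 and 9 of 12 libraries. It passed the fold under all 6 alternatives, but those that changed only the filter on low values could not move the difference. The others gave -1.98 to -1.30.

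Per library, 1, 5 and 14 clustered members (lowest, median, highest) were detected in libraries labelled null and 5, 10 and 17 in those labelled wild type. At a limit of 5 TPM the medians were 2 and 4. The genes detected in all also differed between the genotypes, as given above. Outside the 5 C-type members, the clustered member with the highest level differed from library to library: 14 different members led in the 24 libraries that had any, Pcdhb7 in 4 and Pcdhgb1 in 3 of them.

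Pcdhb8 was listed at 0 in all 13 libraries labelled null and was at 1 TPM or more in 5 of 12 labelled wild type (41.7%). In the latter it reached 33.5 TPM (difference -1.46, and -0.59 as a difference of medians). It passed the filter of 1 TPM only through the libraries labelled wild type, with means of 0 TPM (null) and 6.42 TPM. The exact 95% Clopper-Pearson intervals, up to 24.7% and 15.2 to 72.3%, hold counting error over these libraries only and do not compare the genotypes. Listing at 0 in all libraries of 1 genotype was shared by 1.12% of genes at this level in libraries labelled null and by 1.18% in those labelled wild type. Pcdhgb1 went the other way, detected in 5 of 13 libraries labelled null, up to 14.9 TPM, and in 1 of 12 labelled wild type, at 1.17 TPM (difference 1.01). Its difference was 0.83, short of the fold, without the 2 libraries per genotype with the fewest genes, and 0 as a difference of medians. It passed the filter of 1 TPM only through the libraries labelled null, with means of 2.62 TPM (null) and 0.0975 TPM. Pcdhb7 was detected in 6 of 13 and 3 of 12 libraries (difference 0.62), Pcdhgb6 in 2 of 13 and 7 of 12 (-0.88), Pcdhga7 in 1 of 13 and 6 of 12 (-0.96) and Pcdhga4 in 3 of 13 and 5 of 12 (-0.66). Of the alpha members, none was detected in more than 6 of the 25 libraries. Pcdhac2, a C-type alpha member, was in 3 of each genotype.

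**Figure D5:**
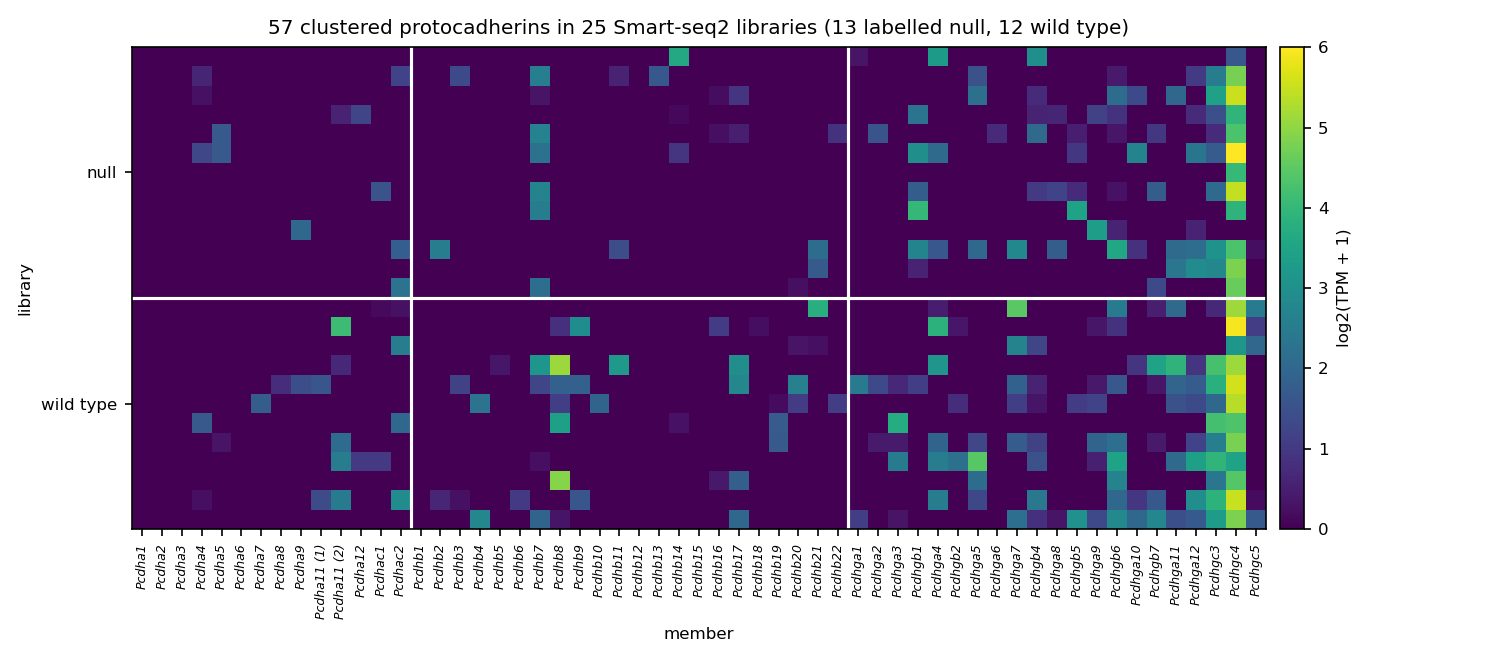
Level of the 57 clustered protocadherins, as log2(TPM + 1), in 13 Smart-seq2 libraries labelled null and 12 labelled wild type (rows), with columns ordered as alpha, beta and gamma members in gene order. Pcdhgc4 forms the one nearly continuous bright column, broken where it is at 0 in 1 library labelled null. Other members appear in scattered libraries, Pcdhb8 in libraries labelled wild type only.

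Among the partner genes, 1 of 12 adherens junction genes passed the fold, and it was higher in libraries labelled wild type (8.33%, against 8.14% of all genes). This was Ctnnd1 (p120-catenin), which holds classical cadherins at the surface, at 0, 4.50 and 23.9 TPM against 3.88, 18.5 and 29.5 TPM (difference -1.52). Ctnnb1 stood at medians of 270 and 370 TPM (difference -0.34). Of 13 cytoplasmic partners and proteases, 2 members of the WAVE actin-regulatory complex passed the fold in the same direction (15.4%, against the same 8.14%), Nckap1 (medians 8.31 and 25.5 TPM, difference -1.33) and Abi2 (14.6 and 24.2 TPM, difference -1.15). None of 9 promoter-choice genes, 9 other superfamily genes or 4 transcription factors acting on Cdh1 passed it in either direction, against 9.52% of all genes.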

How the data were processed

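Bulk and Smart-seq2 RNA-seq tables were used as deposited. The submitters' processing notes name STAR 2.7.0a, Trimmomatic, featureCounts and builds mm10 and GRCm38, without saying which step made which table. The bulk table is deposited under a TPM name, but its columns hold estimated counts per gene (46.6% of values above 0 are whole within 0.0001) that sum to library sizes, and these were rounded. The Smart-seq2 table holds TPM deposited by the authors, with all columns summing to the same total. Identifiers were matched to GENCODE M21 gene names, 34651 of 34865 in bulk and 55227 of 55487 in Smart-seq2.

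Bulk genes averaging 1 CPM or more were tested with edgeR 4.0.16 (TMM factors, quasi-likelihood fit, Benjamini-Hochberg adjustment over all genes tested) under R 4.3.3. Smart-seq2 values were compared as means of log2(TPM + 1), with a pseudocount of 1, over genes averaging 1 TPM or more and without a test. A difference of 1 was used as the fold, and 1 TPM or more counted as detected. Shares of libraries have exact 95% intervals for counting error only. Alternatives used DESeq2 1.42.0, limma 3.58.1, other scalings and filters, a replicate block and left-out libraries. The scripts were tested on simulated data. Promoter windows came from RefSeq.

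Named in bulk were all members past the threshold, and per subfamily the 2 uncalled members with the highest level per exon length, and in Smart-seq2 the 5 highest members per subfamily and those past the fold, and of each partner list up to 4 genes per direction. The members, lists and tests were chosen with earlier results of these data known.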

Additional observations from a re-analysis of the deposited data

How the results depend on the processing

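The 5 called members kept their direction and their call under all 15 alternative fits, with adjusted p-values up to 0.0471 for Cdh1, 0.0235 for Cdh17, 0.0165 for Pcdh9, 0.0119 for Pcdh18 and 0.0046 for Cdh22. Counts of calls moved more. With 1 library left out, 498 to 1695 genes were called higher in dorsal and 843 to 1928 higher in ventral tissue, against 1050 and 1403 with all libraries, and 2 to 6 and 3 to 4 members. Without both libraries numbered 3 the genes numbered 3843 and 4117 and the members 15 and 13. DESeq2 also called Cdh8 (adjusted p = 0.0123), Cdh12 (adjusted p = 0.0298) and Cdh13 (adjusted p = 0.0476) higher in dorsal tissue. The same-numbered libraries of the regions correlated by 0.0993, 0.147 and 0.165 in their deviations, and dorsal 2 correlated best with ventral 1 (0.188), so the numbers were not taken to pair them. Each library 3 correlated negatively with libraries 1 and 2 of the other region (-0.192 to -0.0899). What the libraries numbered 3 have in common was not tested. With a replicate block, Pcdhgb7 was also called higher in dorsal tissue (log2 fold change 0.93, adjusted p = 0.0461, edgeR). The shares of all genes called by DESeq2 and with the block are not given here, so these added calls cannot be set against them. For Smart-seq2, no paired analysis was possible because the columns carry no number that ties the genotypes to each other.

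Among the 82 tested members, 35 changed sign under some fit, 30 of them clustered. None of these 35 was called by edgeR with all libraries and no replicate block. Over the fits that left out 1 library or both libraries numbered 3, the log2 fold change ranged from -0.39 to 0.095 for Cdh2, -0.16 to 0.42 for Cdh11, -0.41 to 0.14 for Pcdh19, -0.041 to 0.70 for Pcdh8, -1.07 to 0.36 for Pcdhac2, -0.18 to 0.33 for Pcdhb17, -0.61 to 0.38 for Pcdhb7 and -0.35 to 0.47 for Pcdhgc3. Pcdhac2 was at 1.42 with limma-voom and 0.52 with the replicate block. Pcdhb7 was at 0.033 without scaling, 0.50 with limma-voom and 0.40 with the block. The cause was not tested.

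In Smart-seq2, the members higher in wild type numbered 15 and those higher in null 2 with a pseudocount of 0.1, 3 and 0 with a mean of at least 5 TPM, 11 and 1 with TPM over protein-coding nuclear genes, 8 and 0 as a difference of medians, and 7 and 0 without the 2 libraries per genotype with the fewest genes. Under the same settings in order, all genes gave 3038 and 766, 883 and 139, 1357 and 146, 1699 and 427, and 1345 and 210, against 1113 and 190. The pseudocount, the medians and the left-out libraries kept the same 30 members and 13680 genes. For the mean of at least 5 TPM and the protein-coding TPM the numbers kept are not given. The counts under these settings cannot be set against each other as shares. Of 158 member values under alternatives, 154 moved by less than 1 SD between libraries, and 0 changed sign among members past the fold. The settings without a filter and with a mean of at least 5 TPM change only which genes are kept. Their values could not move, so the 154 is no measure of how stable the values are. At 5 TPM the median number of clustered members detected in wild type was 4.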
